A study of Zea mays with 6 samples.

Results

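The 3 genes described here belong to the machinery that makes and uses phased small RNAs in maize anthers. They are dcl5 (Zm00001d032655) and the ARGONAUTE genes mago1 (Zm00001d007786) and mago2 (Zm00001d013063). They were taken by identifier from a table of 46430 rows, and their names came with those identifiers and not from the table. RNA-seq was done on anthers of maize (Zea mays) at stages labelled S3 to S5. One group, called zmrpn1 here, carried the genotype aa and was described as a ZmRPN1 knockout. The sample titles name Mutator, and the design text names the allele zmrpn1-1. Mutator is a family of maize transposons used to make insertion mutants. The other group was wild type (WT), genotype AA. Each group had 3 libraries. Nothing in the labels tells if replicates were separate plants or pools of plants, in which background the mutation was kept, or how the WT plants were related to the mutants. The p-values therefore measure the spread between these libraries, which may be technical.

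Phased small RNAs (phasiRNAs) are cut at regular steps from long non-coding transcripts, and grass anthers make very large amounts of them. A pair of microRNA families starts the process: miR2118 triggers the shorter class, which is abundant before meiosis, and miR2275 triggers the longer class, which is abundant around meiosis and depends on the tapetum, the nourishing cell layer beside the pollen mother cells. DCL5 is the Dicer-like ribonuclease that cuts the longer class, and maize dcl5 mutants are male sterile in warm conditions and fertile in cooler ones. MAGO1 and MAGO2 are ARGONAUTE proteins of the AGO5 group, which hold small RNAs and use them to recognise target RNAs. Maize plants that lack both have male fertility that is sensitive to heat.

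Library totals ran from 16203290 to 29515176 counts. Of the 46430 rows, 23477 passed the filter on low counts and were tested. Among the 3 genes, dcl5 and mago2 passed and mago1 did not. All levels are CPM, the count of a gene relative to the size of its library, with library sizes scaled by the trimmed mean of M values (TMM), and all changes are log2 values of zmrpn1 over WT. The CPM values are not corrected for gene length, so the levels of the 3 genes are not ranked against each other. The labels give no identifier for ZmRPN1, and the genotype was not checked against its transcript. Most nuclear rows carry identifiers without names, so the anther label was not checked against marker genes either. As markers of green tissue 7 plastid photosynthesis genes were looked up. All had a row, and psbA, psaB, psbB, psbC and psbD were at 0 in every library. The summed level of the 7, which came from rbcL and psaA, was 0 to 0.106 CPM in zmrpn1 and 0 to 0.186 CPM in WT. With most of these rows at 0 throughout, they give no check on green tissue.

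Both tested genes, dcl5 and mago2, were modestly higher in zmrpn1 anthers than in WT anthers. The dcl5 transcript was 1.25-fold higher and the mago2 transcript 1.20-fold higher, and each passed the test over all genes. The comparison as a whole called 12.4% of tested genes, with 6.63% of tested genes higher and 5.82% lower in zmrpn1. The mago1 transcript was close to the limit of detection in both groups and could not be placed higher or lower. These are bulk samples, so more cells of a type and more RNA per cell cannot be told apart. The labels give a range of stages, S3 to S5, and whether both groups held the same mix of stages was not known.

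The Dicer gene dcl5 had 56.1, 59.5 and 50.7 CPM in the zmrpn1 libraries 1, 2 and 3, against 41.1, 46.2 and 45.5 CPM in the WT libraries 1, 2 and 3. The 2 groups did not overlap: the lowest zmrpn1 library, replicate 3, lay above the highest WT library, replicate 2. Of all tested genes, 27.0% had groups that did not overlap, and for 13.8% every zmrpn1 library lay above every WT library. The mean was 55.4 ± 4.47 CPM in zmrpn1 and 44.3 ± 2.80 CPM in WT (SD, n = 3 each). The log2 change was 0.32 ± 0.07 (± standard error; edgeR quasi-likelihood test, Benjamini-Hochberg adjusted p = 0.000386), with a 95% interval of 1.14-fold to 1.37-fold. The row held 3618 counts over the zmrpn1 libraries and 2919 over the WT libraries, a ratio of 1.24 once scaled by library size (95% exact binomial interval 1.183 to 1.305, for counting error only). For the nearest libraries of the groups the exact Poisson interval was 48.0 to 53.5 CPM for zmrpn1 replicate 3 and 43.0 to 49.7 CPM for WT replicate 2, which overlap.

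The ARGONAUTE gene mago2 had 69.8, 74.4 and 63.5 CPM in the zmrpn1 libraries 1, 2 and 3, against 56.0, 59.7 and 57.0 CPM in the WT libraries 1, 2 and 3. Again the groups did not overlap, and the zmrpn1 libraries spread more widely than the WT libraries. The mean was 69.2 ± 5.49 CPM in zmrpn1 and 57.6 ± 1.93 CPM in WT (SD, n = 3 each). The log2 change was 0.27 ± 0.06 (standard error, edgeR adjusted p = 0.0017), with a 95% interval of 1.10-fold to 1.31-fold. The row held 4519 counts over the zmrpn1 libraries and 3778 over the WT libraries. A two-sided exact permutation test of the CPM values gave p = 0.1 for dcl5 and for mago2, the smallest that 3 against 3 libraries allow, so that test alone could not reach the threshold.

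**Figure D1:**
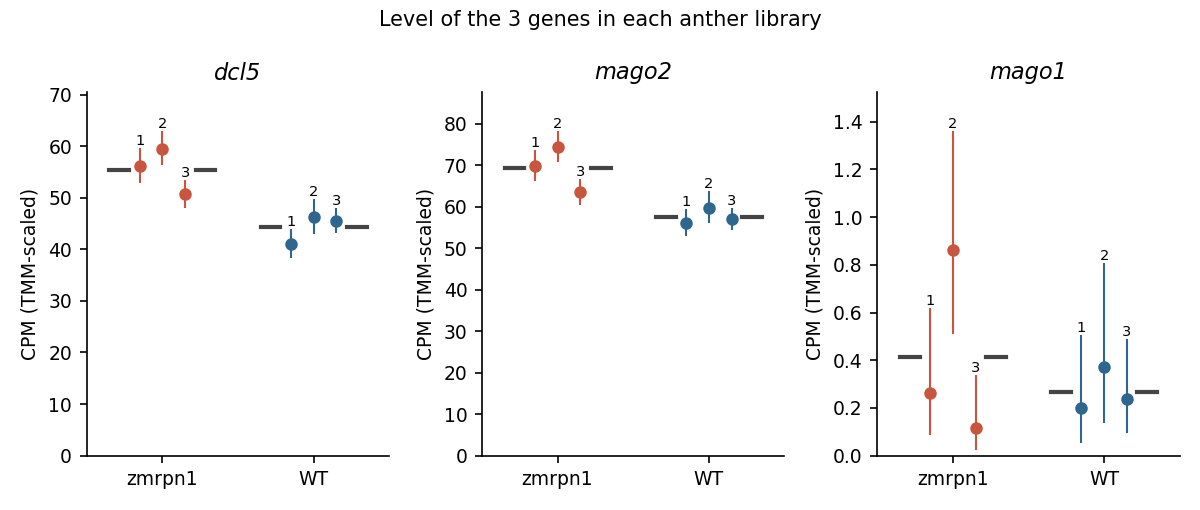
CPM (TMM-scaled library sizes) of dcl5, mago2 and mago1 in each anther library, zmrpn1 left and WT right. Points are libraries with their replicate number, bars are exact 95% Poisson intervals for counting error, and the dark ticks beside the points mark the group mean. The 3 zmrpn1 libraries lie above the 3 WT libraries for dcl5 (50.7 to 59.5 against 41.1 to 46.2 CPM) and mago2 (63.5 to 74.4 against 56.0 to 59.7 CPM), while the groups overlap for mago1.

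The second ARGONAUTE gene, mago1, had 5, 18 and 3 counts in the zmrpn1 libraries 1, 2 and 3, against 4, 6 and 7 counts in the WT libraries 1, 2 and 3. That is 0.264, 0.861 and 0.116 CPM in zmrpn1 and 0.198, 0.372 and 0.237 CPM in WT. The groups overlapped, since zmrpn1 held both the highest and the lowest library, and zmrpn1 replicate 2 alone gave 18 of the 26 counts of its group. A count of 3 corresponds to 0.102 to 0.185 CPM at the depth of these libraries, so most values lay near that floor. The mean was 0.414 ± 0.395 CPM in zmrpn1 and 0.269 ± 0.0913 CPM in WT (SD, n = 3 each, two-sided exact permutation p = 0.8).

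With 26 counts in zmrpn1 and 17 in WT, the ratio of summed mago1 counts, scaled by library size, was 1.53 (95% exact binomial interval 0.801 to 3.01). Without zmrpn1 replicate 2 the counts were 8 and 17 and the ratio was 0.692 (interval 0.258 to 1.69), so 1 library decided its direction. These intervals cover counting error only. A difference in mago1 of the size seen for dcl5 or mago2 was not detectable at this depth. When all genes with any count were tested, mago1 had a log2 value of 0.62 ± 0.60 (standard error, edgeR adjusted p = 0.658).

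The genes mago1 and mago2 are related in sequence, and the sources used here do not say how reads that match both were counted. Their counts are uncertain to that extent. Here AGO5 counts means the counts of mago1 and mago2 together, and no other AGO5 row was looked up. Nearly all of these counts fell on mago2 in every library. The mago1 share of the AGO5 counts was 0.378%, 1.14% and 0.182% in the zmrpn1 libraries 1, 2 and 3, against 0.352%, 0.619% and 0.415% in the WT libraries 1, 2 and 3. The group means were 0.568% ± 0.509 in zmrpn1 and 0.462% ± 0.139 in WT (SD, n = 3 each, two-sided exact permutation p = 0.9). The share of zmrpn1 replicate 2 had an exact binomial interval of 0.680% to 1.80%, which lay above that of zmrpn1 replicate 3 (0.0376% to 0.531%) and overlapped those of all WT libraries. Added up as 1 row, mago1 and mago2 rose by 0.27 ± 0.06 on the log2 scale (standard error, edgeR adjusted p = 0.00173), as much as mago2 alone. With so small a mago1 share, this sum could hardly differ from mago2 and is no separate check on it.

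The rises of dcl5 and mago2 were small among the genes called higher. A gene with a larger standard error needs a larger rise to be called, so this set leaves out small rises of such genes. Of the 1556 genes called higher in zmrpn1, 69.4% rose by more than dcl5 and 79.8% by more than mago2, and the median rise of those 1556 genes was 0.45 on the log2 scale. The smallest rise called was 0.15. Both genes were measured more tightly than most: the standard error of 72.4% of tested genes was larger than that of dcl5, and of 79.8% larger than that of mago2. Standard errors tended to fall as the average level rose. These shares were not taken among genes of like level, so the tightness is not read as particular to dcl5 and mago2. Only 4.62% of tested genes had a smaller adjusted p than dcl5 (edgeR), and 5.88% had a smaller one than mago2. The median log2 change of all tested genes was 0.00122.

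**Figure D2:**
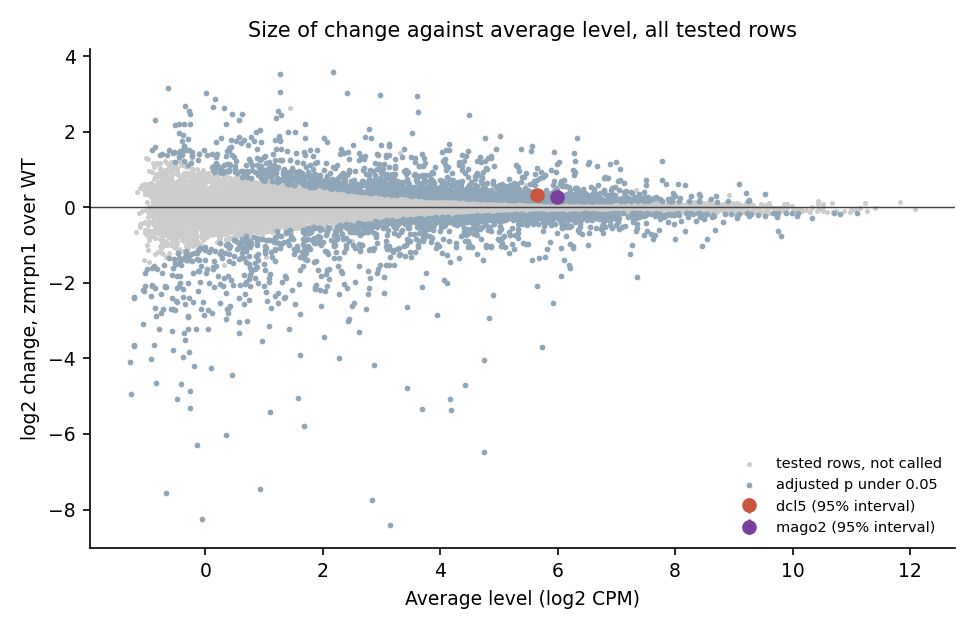
The log2 change of zmrpn1 over WT (vertical axis) against average level in log2 CPM (horizontal axis) for the 23477 tested rows, with called rows in blue-grey. The genes dcl5 and mago2 sit at log2 changes of 0.32 and 0.27, at the edge of the band of uncalled rows and below the median rise of 0.45 of the genes called higher; mago1 was not tested and is not drawn.

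The call for dcl5 and the call for mago2 did not rest on 1 library or on 1 tool. Leaving out each library in turn gave log2 changes of 0.27 to 0.39 for dcl5 (edgeR adjusted p 7.64e-06 to 0.00948) and of 0.21 to 0.33 for mago2 (edgeR adjusted p 2.53e-05 to 0.0314). For both genes the change was smallest without zmrpn1 replicate 2 and largest without zmrpn1 replicate 3. DESeq2 gave 0.32 for dcl5 (adjusted p = 0.000848) and 0.26 for mago2 (adjusted p = 0.00382).

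**Figure D3:**
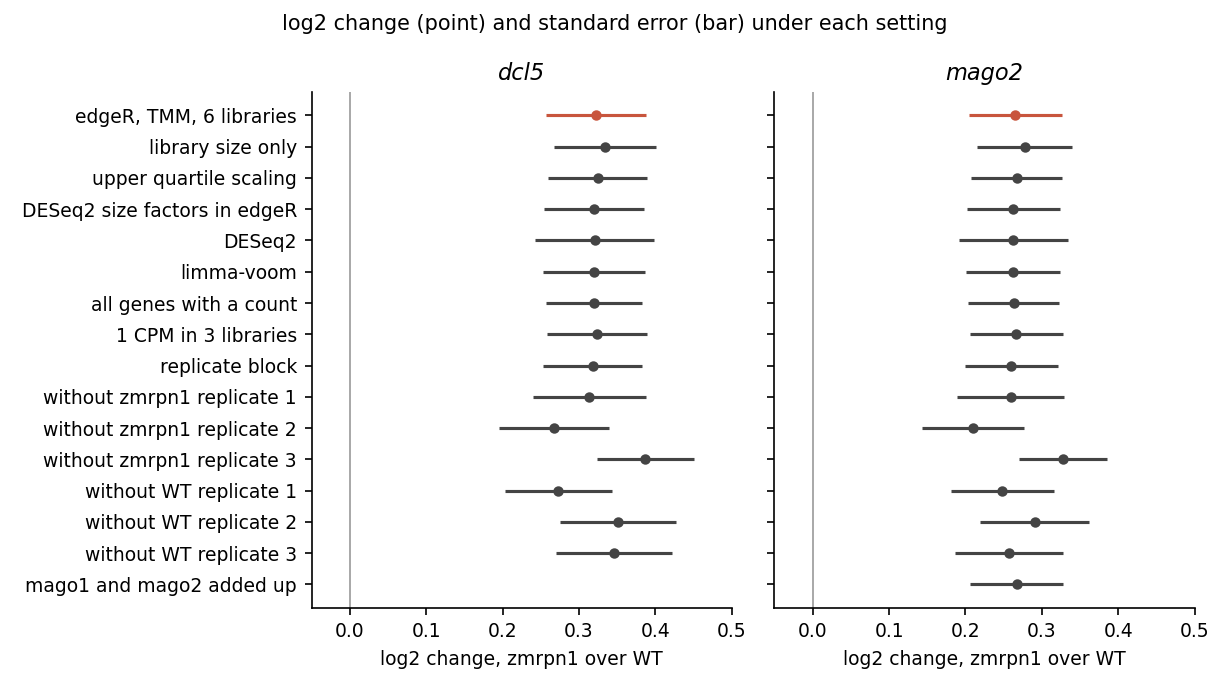
The log2 change of zmrpn1 over WT for dcl5 (left) and mago2 (right) under each setting named on the vertical axis, with bars of 1 standard error. With all settings drawn, dcl5 lies between 0.27 and 0.39 and mago2 between 0.21 and 0.33, and the grey line marks no change. The row with mago1 and mago2 added up applies to mago2 only.

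The Dicer gene and the ARGONAUTE gene ranked the libraries of each group in the same order. In zmrpn1 both were highest in replicate 2, next in replicate 1 and lowest in replicate 3. In WT both were highest in replicate 2, next in replicate 3 and lowest in replicate 1. In zmrpn1 the counting intervals of replicates 2 and 3 did not touch, at 56.3 to 62.9 and 48.0 to 53.5 CPM for dcl5 and at 70.8 to 78.2 and 60.5 to 66.6 CPM for mago2. Those replicates are the ends of the zmrpn1 order. Libraries next to each other in either order had intervals that overlapped, and their differences were not tested. The mago1 values, near the floor, ran in the same orders. How many of all tested rows share these orders was not counted, so they are not read as particular to dcl5 and mago2.

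The proportion of dcl5 to mago2 counts differed little from library to library. Of the counts on dcl5 and mago2 together, dcl5 took 44.6%, 44.4% and 44.4% in the zmrpn1 libraries 1, 2 and 3, against 42.3%, 43.6% and 44.4% in the WT libraries 1, 2 and 3. These shares are of counts and do not depend on library scaling. The zmrpn1 shares were almost equal, and WT replicate 1 had the lowest share of the 6 libraries. The mean share was 44.5% ± 0.0985 in zmrpn1 and 43.4% ± 1.08 in WT (SD, n = 3 each, two-sided exact permutation p = 0.2). The difference was 1.03 percentage points, or 0.452 without WT replicate 1 and 1.52 without WT replicate 3. With 3 against 3 libraries the smallest possible p is 0.1, so this test could not pass the threshold and says nothing on whether the genes rose equally. This comparison was chosen after the values were seen.

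Likeness of pattern was measured as the root mean square difference over the 6 libraries between log2 CPM values, each row taken relative to its own mean, among rows with an average of at least 1 log2 CPM. For dcl5, mago2 ranked 8 of 20130 rows, with a difference of 0.05 log2 units against a median of 0.21 over those rows. That median is a loose yardstick, since a row with the same level in all libraries would lie 0.18 log2 units from dcl5. Seen from mago2, dcl5 ranked 26 of 20130. The row nearest to dcl5 was Zm00001d000380, which differed from it by 0.02 log2 units. It had 7.88, 8.71 and 7.26 CPM in zmrpn1, against 5.89, 6.45 and 6.40 CPM in WT, with a log2 value of 0.34 ± 0.13 (standard error, edgeR adjusted p = 0.072). The row nearest to mago2 was Zm00001d012005, at 0.03 log2 units from it. It had 199, 206 and 182 CPM in zmrpn1, against 163, 164 and 161 CPM in WT, and rose by 0.27 ± 0.05 on the log2 scale (standard error, edgeR adjusted p = 0.000357). Neither of these rows has a name in the sources used here. For mago1 the nearest row, Zm00001d053260, differed by 0.37 log2 units, and with only 26 and 17 mago1 counts in the groups nothing is read from it. These likenesses and ranks are a description over 6 libraries. Tightly measured rows with a rise of like size come out near each other by this measure. Whether the genes share control was not tested.

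**Figure D4:**
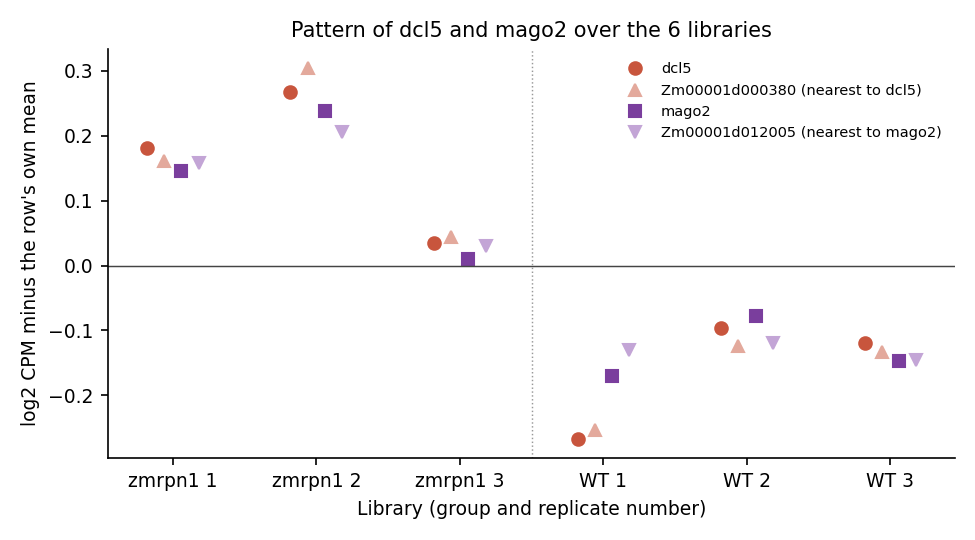
Level of dcl5, mago2 and the row nearest to each in the 6 libraries, as log2 CPM minus the row's own mean over the libraries, with the 3 zmrpn1 libraries left of the dotted line and the 3 WT libraries right of it. All 4 rows lie above 0 in each zmrpn1 library and below 0 in each WT library, and all 4 are highest in zmrpn1 replicate 2.

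None of the tested rows closest to dcl5, mago2 or mago1 in the count table was called higher in zmrpn1. Among the 10 tested rows on either side of dcl5 in the count table, 0 of 20 were called higher and 1 was called lower, with a log2 change of -0.24 (edgeR adjusted p = 0.0448). Around mago2, 0 of 20 were called higher and 1 was called lower, with a log2 change of -1.29 (edgeR adjusted p = 4.6e-06), at 9 tested rows from the gene. Around mago1, 0 of 20 were called higher and 1 was called lower, with a log2 change of -0.78 (edgeR adjusted p = 1.14e-07), 2 tested rows from it. The median log2 value of the 20 neighbours was -0.00197 for dcl5, -0.0341 for mago2 and -0.00335 for mago1. Of all tested rows, 12.4% were called, 6.63% higher and 5.82% lower in zmrpn1. For 20 rows around a gene, counts of 0 and 1 are close to these shares, and nothing is read from them. The row order was taken as the order along the chromosomes, which was not checked here.

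**Figure D5:**
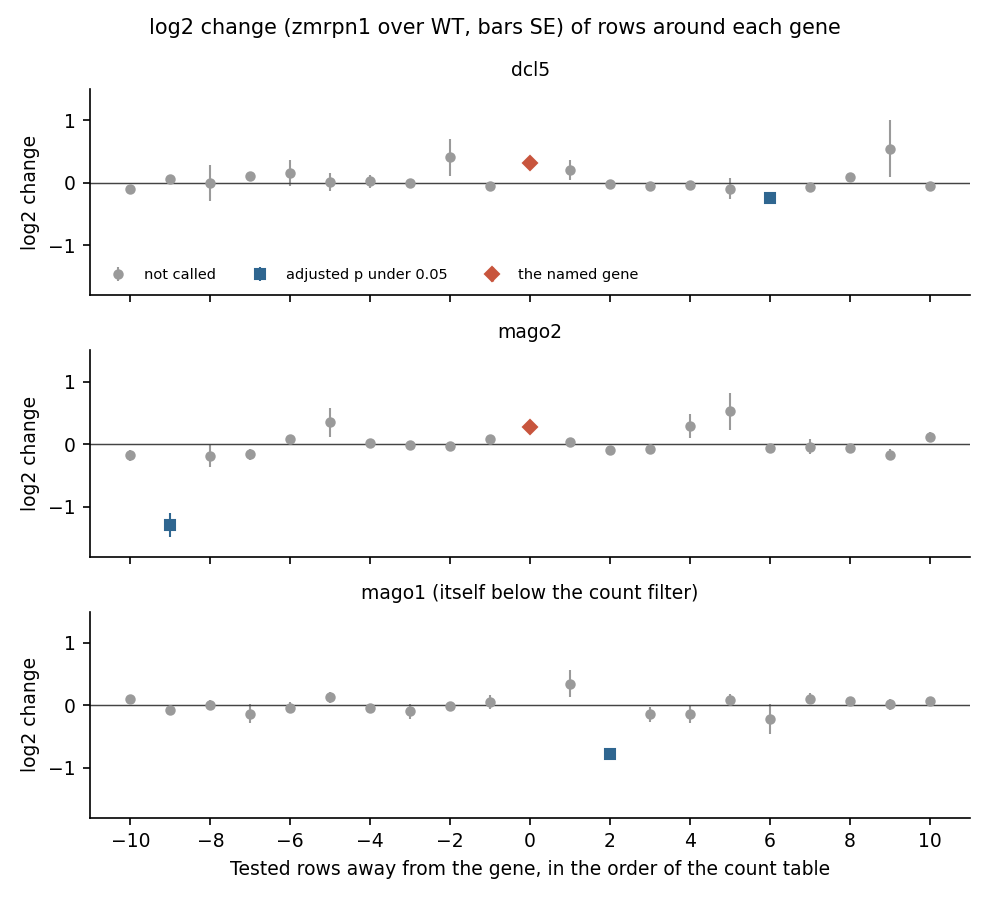
The log2 change of zmrpn1 over WT, with bars of 1 standard error, of the 10 tested rows on either side of dcl5 (top), mago2 (middle) and mago1 (bottom), by their distance in tested rows. Diamonds are the genes themselves, at 0.32 for dcl5 and 0.27 for mago2; squares mark called neighbours, 1 around each gene and all of them lower in zmrpn1.

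The trigger step of the pathway could not be read from these libraries. The table has 7 rows for precursors of miR2118 (MIR2118a to MIR2118g) and 4 for precursors of miR2275 (MIR2275a to MIR2275d), and all 11 were listed at 0 in every zmrpn1 library and every WT library. Likewise all 5 rows for the precursors MIR162, MIR168a, MIR168b, MIR390a and MIR390b were listed at 0. In plants miR162 targets DCL1 transcripts, miR168 targets AGO1 transcripts, and miR390 starts another set of phased small RNAs with AGO7. The same held for every one of the 154 precursor rows of the table, whereas 442 of 1765 rows with ENSRNA identifiers had a count. A count of 0 allows up to 0.102 to 0.185 CPM in these libraries, but with the whole class at 0 these rows give no measure of either trigger, and 0 of the 11 and 0 of the 5 were tested. The small RNAs themselves were not analysed here.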

How the data were processed

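Anther RNA of 3 zmrpn1 and 3 WT samples was sequenced from NEBNext Ultra II libraries, per the labels' protocols. The submitters' processing notes list the build B73 RefGen_v4 and the tools HISAT2 2.2.1, Trimmomatic 0.39, DESeq2, StringTie 1.3.6 and featureCounts 1.6.4, with no order or role. The sources used here state neither the strand setting nor what was done with reads that match several places. Overlapping or near-identical genes may thus have exchanged reads. The authors deposited raw counts, 1 whole number per gene and library. No row held unassigned reads.

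Counts were tested with edgeR 4.0.16 in R 4.3.3 (filterByExpr with a minimum count of 10, TMM scaling, quasi-likelihood F test with robust dispersion, genotype as the sole term), with Benjamini-Hochberg adjustment over all 23477 tested genes and a threshold of 0.05. Standard errors were obtained from the change and its F statistic. The test was checked on simulated data. DESeq2 1.42.0 and limma-voom (limma 3.58.1) were alternatives, with other scalings, filters, a replicate block and each library left out. The common biological coefficient of variation was 5.16%. Replicate libraries differed by more than sampling noise (chi-square per degree of freedom 2.00 to 4.65), so none was taken for a library deposited again; this does not show that they are separate biological samples. Named genes were the 3 members, rows of the precursor lists and the row nearest to each member. Plastid gene names came from the RefSeq gene table of another assembly (Zm-B73-REFERENCE-NAM-5.0), whose coordinates were not used. The members, lists and tests were chosen with earlier results of these data known.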

Additional observations from a re-analysis of the deposited data

How the results depend on the processing

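The dcl5 change kept its direction and its side of the threshold in all 14 alternatives, and the mago2 change in all 15. The 15 include mago1 and mago2 added up, a row that is nearly all mago2 and could hardly differ from it. Apart from leaving out libraries, the alternatives gave log2 changes of 0.32 to 0.33 for dcl5 (adjusted p 1.25e-05 to 0.00104) and 0.26 to 0.28 for mago2 (adjusted p 0.000268 to 0.00382). When the replicate block was added, the log2 change was 0.32 for dcl5 (edgeR adjusted p = 0.000115) and 0.26 for mago2 (edgeR adjusted p = 0.000916), and the block changed neither call. The labels do not tell if libraries with the same number shared more than that number. Their deviations from the group means had correlations of -0.0374, 0.0198 and 0.0306. For mago1 the log2 ratio of summed counts was 0.62 and ran from -0.53 without zmrpn1 replicate 2 to 1.16 without zmrpn1 replicate 3. That ratio was chosen after the counts were seen, because mago1 failed the filter, and mago1 had no value with the other scalings, tools, stricter filter or block. An adjusted p under 0.01 left 1011 of the 1556 genes called higher, by construction. The other counts of calls stayed within 1.5 times of 1556 higher and 1366 lower. The precursor lists had no tested row in any fit. The difference in the mago1 share of mago1 plus mago2 counts was 0.106 percentage points. It ran from -0.182 to 0.299 with 1 library left out, and the difference in the dcl5 share ran from 0.452 to 1.52. None of the 18 library levels moved by 1 SD with plain library totals. Depth limits what can be said of mago1, with 26 and 17 counts in zmrpn1 and WT.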
